A study of Mus musculus with 2 samples.

Results

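Interferon-stimulated genes of the mouse uterus are described here across cell compartments of 2 single-cell RNA libraries, each made from 1 sample. A list of 51 gene symbols was looked up in the deposited feature tables of 32285 genes, and 49 were found. Mx1 and Mx2, which encode antiviral GTPases, were not listed under these symbols and were not analysed here. The tested library came from uterine tissue of genotype Pgrcre/+Mig-6f/f and is labelled knockout. The other came from Mig-6f/f uterine tissue and is the control. Both genotypes carry floxed Mig-6 alleles, and Cre is expressed from the Pgr gene of the progesterone receptor, which limits recombination to cells with an active Pgr gene and their progeny. Both tissues were taken at gestational day 3.5 and dissociated with trypsin, followed by a dead cell removal kit used to take out blood cells. The labels give neither the age and strain of the females nor whether animals were pooled.

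Interferons are secreted proteins, many of which cells release when they sense foreign or misplaced nucleic acid. Type I and type III interferons act through JAK1 and TYK2 on a complex with STAT2 and IRF9, which binds the interferon-stimulated response element, while interferon gamma uses its own receptor. Together they switch on a large set of antiviral, sensing and signalling genes, and in the uterus interferon epsilon is made constitutively by the epithelium.

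The promoters of members were searched for the interferon-stimulated response element. RefSeq promoter windows on build GRCm38.p6 were found for 38 of the 51 symbols, and Ifi27l2a, Rtp4 and Usp18 are among those named only. The 250 bases before the annotated start were searched on both strands for GAAA, any 2 bases and GAAA again, the core repeat of the response element. At least 1 match was present in 16 of the 38 members, against 3.46% of 27025 genes. Shown here are members with an entry among those with the largest stromal ratios, together with Ifitm3 and Lgals3bp, the members within 2-fold in stroma with the most UMIs. Capitals mark every match, and the sequences run from 5′ to 3′ along the gene.
Ifit1: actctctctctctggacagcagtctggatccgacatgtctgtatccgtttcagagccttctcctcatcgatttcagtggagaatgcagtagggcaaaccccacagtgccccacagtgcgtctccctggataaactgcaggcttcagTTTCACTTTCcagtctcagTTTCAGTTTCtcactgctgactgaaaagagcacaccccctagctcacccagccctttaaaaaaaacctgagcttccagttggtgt
Bst2: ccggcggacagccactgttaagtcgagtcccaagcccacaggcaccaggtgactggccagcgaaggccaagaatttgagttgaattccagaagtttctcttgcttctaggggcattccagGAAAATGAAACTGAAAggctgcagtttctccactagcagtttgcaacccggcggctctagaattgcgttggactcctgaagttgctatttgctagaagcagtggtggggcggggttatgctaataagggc
Isg15: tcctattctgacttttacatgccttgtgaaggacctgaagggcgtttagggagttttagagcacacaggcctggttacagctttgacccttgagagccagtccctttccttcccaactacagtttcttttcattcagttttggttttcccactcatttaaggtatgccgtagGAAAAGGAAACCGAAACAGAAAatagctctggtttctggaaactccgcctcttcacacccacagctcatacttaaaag
Ifi203: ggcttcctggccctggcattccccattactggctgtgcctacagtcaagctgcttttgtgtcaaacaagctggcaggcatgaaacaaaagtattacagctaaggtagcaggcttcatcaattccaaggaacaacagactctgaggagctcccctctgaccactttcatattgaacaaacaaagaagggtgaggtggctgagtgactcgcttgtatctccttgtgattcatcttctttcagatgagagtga
Ifitm3: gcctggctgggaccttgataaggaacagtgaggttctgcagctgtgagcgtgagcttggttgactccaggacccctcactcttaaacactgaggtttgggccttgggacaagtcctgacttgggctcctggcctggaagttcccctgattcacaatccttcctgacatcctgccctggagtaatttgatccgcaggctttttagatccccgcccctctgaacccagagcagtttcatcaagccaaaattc
Lgals3bp: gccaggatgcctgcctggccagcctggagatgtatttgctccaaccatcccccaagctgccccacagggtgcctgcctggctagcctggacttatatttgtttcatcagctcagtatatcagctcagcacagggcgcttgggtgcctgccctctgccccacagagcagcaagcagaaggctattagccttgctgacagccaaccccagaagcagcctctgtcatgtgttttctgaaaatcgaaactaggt
The Ifit1 window lies at chr19:34640639-34640888 on the plus strand and holds 2 matches, both on the opposite strand, which end 95 and 76 bases before the start. The Bst2 window, chr8:71537473-71537722 on the minus strand, holds 2 matches that overlap and lie between 130 and 115 bases before the start. The Isg15 window, chr4:156200819-156201068 on the minus strand, holds 3 overlapping matches between 78 and 57 bases before the start. No match was found in the windows of Ifi203 (chr1:173942673-173942922, minus strand), Ifitm3 (chr7:141010745-141010994, minus strand) and Lgals3bp (chr11:118401960-118402209, minus strand), and the other window listed for Ifi203 holds at least 1. Of the members at least 2-fold higher in stroma, 9 of the 18 with an entry held a match, and of those within 2-fold, 4 of 15 did.

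The library labelled knockout held 3118 barcodes and 23317904 UMIs, and the control held 4627 barcodes and 44871170 UMIs. After filtering, 2881 barcodes of the library labelled knockout and 4303 of the control were kept. Stromal barcodes (Dcn, Col1a2 and Col3a1 together at 10 or more per 10000 UMIs) numbered 1050 in the library labelled knockout, with a median of 3636 UMIs, and 3221 in the control, with a median of 8879. Epithelial barcodes (Epcam, Krt8, Krt18 and Cldn7 at 10 or more) numbered 1418 in the library labelled knockout, with a median of 9523.5 UMIs, and 723 in the control, with a median of 11749. The remaining barcodes numbered 404 in the library labelled knockout and 333 in the control. Errfi1, the gene of Mig-6, was at 513 CPM in epithelium labelled knockout and 575 CPM in control epithelium, and at 733 CPM in stroma labelled knockout, against 197 CPM in control stroma (CPM, UMIs per 1000000 UMIs of that compartment and library). UMIs from outside the deleted part may still be counted, so this level does not check the deletion. In stroma it runs against the label, and every direction below is that of the library labelled knockout. With 1 library per genotype no test was possible. All intervals are 95% and cover counting error only, so each difference is between these libraries.

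In stroma, interferon-stimulated genes were broadly higher in the library labelled knockout. Of the 44 members measured (at least 20 UMIs over both libraries), 24 were at least 2-fold higher, where 5.55% of all genes measured were, and 0 were at least 2-fold lower, where 11.7% of all genes were. The median member had a log2 ratio of 1.14, against -0.05 over all 14457 genes measured. The counting interval lay above a ratio of 1 for 31 members and below it for 0, and this was not counted over all genes. Summed over the 49 members listed, the level was 2570 CPM in stroma labelled knockout and 1432 CPM in control stroma. The size of the ratio differed widely between members, as the plot of ratios by role shows.

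**Figure D1:**
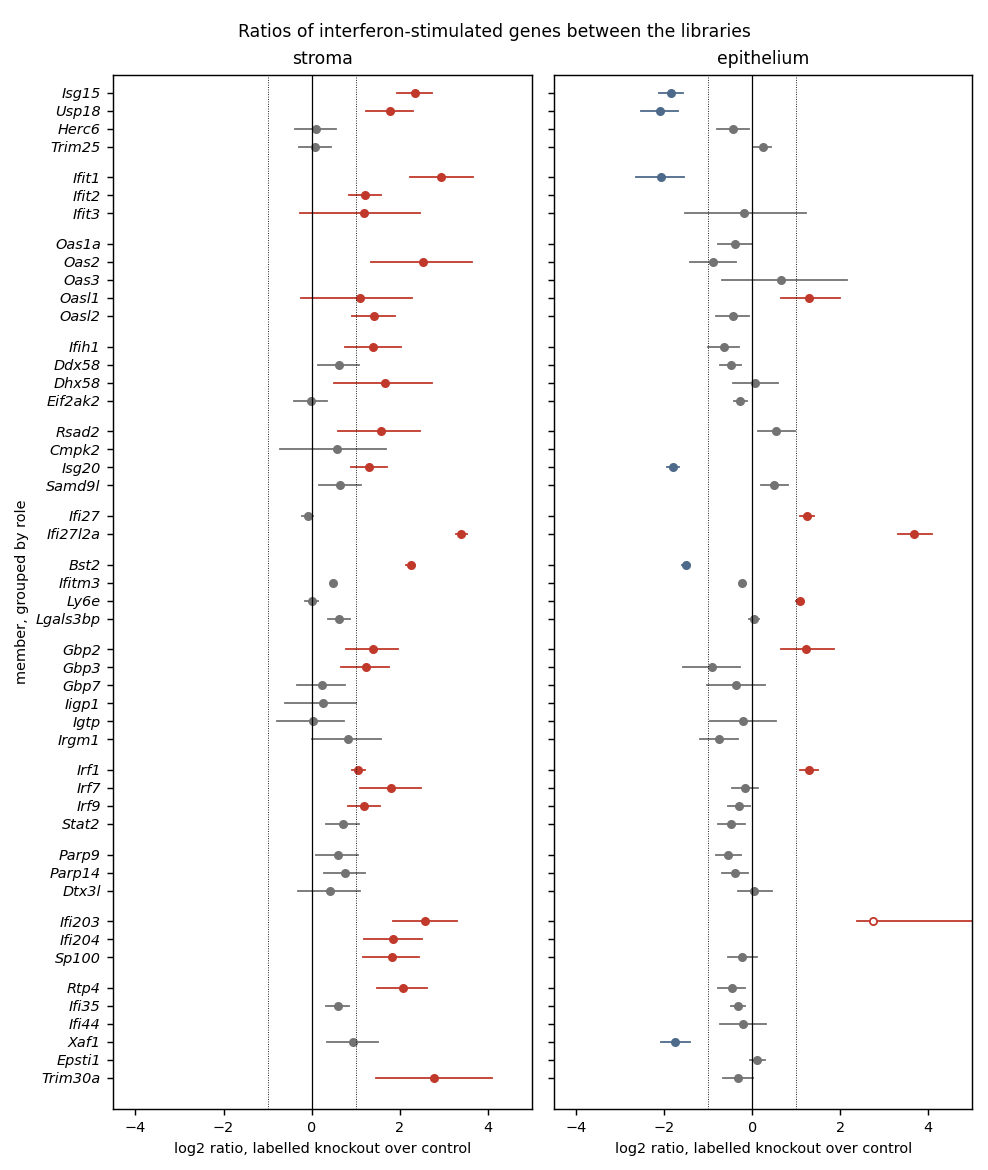
Log2 ratio of CPM, library labelled knockout over control, for each member measured in stroma (left panel) or epithelium (right panel), grouped by role from the ISG15 system at the top to the others at the bottom. Points are ratios, bars are 95% counting intervals, dotted lines mark 2-fold, red is at least 2-fold higher and blue at least 2-fold lower. The open point (Ifi203 in epithelium) is a ratio with the control, at 0 UMIs, set to 3 counts. In stroma 24 points lie at or beyond 2-fold higher and 0 beyond 2-fold lower, and in epithelium 7 and 6 do.

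Ifi27l2a, which encodes a small interferon-induced membrane protein, had the largest of these stromal ratios by its lower bound. It stood at 346 CPM in stroma labelled knockout (1364 UMIs) and 32.9 CPM in control stroma (969 UMIs), a ratio of 10.5 (9.70 to 11.5). Its relative Ifi27 was nearly level, at 151 CPM in stroma labelled knockout and 161 CPM in control stroma (0.941, 0.862 to 1.02). Among the membrane and secreted members, Bst2, the tetherin that holds budding virus at the cell surface, was at 325 CPM in stroma labelled knockout and 68.3 CPM in control stroma, 4.76-fold higher (4.43 to 5.11). Ifitm3, which blocks fusion of virus with the endosome, had the most UMIs of any member and differed less, with 1071 CPM in stroma labelled knockout and 762 CPM in control stroma (1.41, 1.36 to 1.45). Lgals3bp, a secreted glycoprotein, had a ratio of 1.55. Ly6e, a surface protein that affects virus entry, was at 117 CPM in each library.

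Within the ISG15 system, the modifier and its protease were higher while its ligases were near level. Isg15 stood at 22.9 CPM in stroma labelled knockout and 4.51 CPM in control stroma, 5.06-fold higher (3.83 to 6.67). Usp18, which removes ISG15 and also restrains the type I receptor, was at 11.4 CPM in stroma labelled knockout and 3.36 CPM in control stroma, 3.40-fold higher (2.34 to 4.89). Herc6, the mouse ISG15 ligase, had a ratio of 1.07 (0.767 to 1.46), and Trim25 had 1.06 (0.817 to 1.36).

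Of the 10 measured members of the IFIT, oligoadenylate synthetase and RNA sensor groups, 8 were past 2-fold. Ifit1, which binds RNA lacking the host cap, had 36 UMIs in stroma labelled knockout (9.14 CPM) and 35 in control stroma (1.19 CPM), a ratio of 7.70 (4.70 to 12.6). Ifit2 was 2.32-fold higher (1.80 to 2.96), and Ifit3 had a ratio of 2.28 with an interval that includes 1. All 3 IFIT members measured were past 2-fold. The oligoadenylate synthetase group, whose product activates RNase L, had 3 measured members, all past 2-fold, led by Oas2 with 13 UMIs in stroma labelled knockout and 17 in control stroma (5.72, 2.56 to 12.5). Oasl1, a related gene, had a ratio of 2.14 with an interval that includes 1 (0.842 to 4.82). Oas1a lay just under the minimum, with 14 UMIs in stroma labelled knockout and 5 in control stroma. Of the RNA sensors, Ifih1 was 2.64-fold higher and Dhx58 3.17-fold, while Ddx58 had a ratio of 1.53 and the RNA-activated kinase gene Eif2ak2 stood at 0.988 (0.752 to 1.28). Among the antiviral enzymes, the exonuclease gene Isg20 was 2.48-fold higher (1.85 to 3.29) and Rsad2, encoding viperin, 2.95-fold higher, and Cmpk2 and Samd9l were within 2-fold.

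Of the transcription factors, 3 of 4 were past 2-fold. Irf1 was at 119 CPM in stroma labelled knockout and 57.1 CPM in control stroma, a ratio of 2.09 (1.88 to 2.31) that lies close to the 2-fold limit. Irf7, which amplifies the type I response, was 3.48-fold higher (2.12 to 5.59), and Irf9 2.27-fold. Stat2 had a ratio of 1.63 (1.26 to 2.09). The nuclear and DNA-sensing genes were all past 2-fold. Ifi203 had 31 UMIs in stroma labelled knockout and 39 in control stroma (5.95, 3.59 to 9.78), Ifi204 was 3.62-fold higher, and Sp100, a nuclear body component, 3.52-fold.

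Of the 6 GTPases tied more closely to interferon gamma, Gbp2 (2.62) and Gbp3 (2.34) were past 2-fold in stroma, and Gbp7, Iigp1, Igtp and Irgm1 had ratios between 1.01 and 1.77. All 3 members of the PARP and DTX3L group, which modify chromatin and signalling proteins, stayed within 2-fold, with ratios between 1.34 and 1.69. Among the others, Rtp4, a receptor chaperone, was 4.18-fold higher (2.81 to 6.15) and Trim30a, of the TRIM ubiquitin ligases, 6.86-fold (2.74 to 17.0) on 11 UMIs in stroma labelled knockout and 12 in control stroma, while Xaf1 (1.93) and Ifi35 (1.51) lay within 2-fold. Of the 5 members under the minimum, beside Oas1a, Ifit3b had 2 UMIs in stroma labelled knockout and 7 in control stroma. Oas3 had 0 UMIs in stroma labelled knockout and 1 in control stroma. Ifi44 had 7 in stroma labelled knockout and 4 in control stroma, and Epsti1 had 3 in stroma labelled knockout and 12 in control stroma.

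Free RNA and stray cells were measured beside these values. Epithelial markers not used to choose barcodes stood in stroma at 0.562% of their epithelial level in the library labelled knockout and at 0.124% in the control. Subtracting that share of each member's epithelial level left the count at 24 and the median at 1.13. The 7 immune markers together had 36 UMIs in stroma labelled knockout (9.14 CPM) and 81 in control stroma (2.75 CPM). Macrophage markers summed to 1.78 CPM in stroma labelled knockout and 2.68 CPM in control stroma. NK and lymphoid markers had 3 UMIs in stroma labelled knockout (0.762 CPM) and 16 in control stroma (0.543 CPM). Of these 5 markers, 4 were at 0 in stroma labelled knockout and 1 in control stroma. Genes induced by NF-kB in inflammation, a list chosen with earlier results of these data known, were also higher in stroma. All 7 measured were at least 2-fold higher, where 5.55% of all genes were. Among the 7 were Ccl2 (8.73) and Cxcl10 (3.79), which interferon induces as well. Their part in the result was not tested.

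In epithelium some members were higher and others lower, and the share that was lower was near that of all genes. Of 44 measured, 7 were at least 2-fold higher in the library labelled knockout, where 5.08% of all genes were, 6 (13.6%) were at least 2-fold lower, where 15% of all genes were, and 31 lay within 2-fold. A ratio above 1 was found for 15 of the 44 members (34.1%) and for 35.8% of all genes. The median log2 ratio was -0.29, against -0.18 over all genes measured, and the summed level was 3432 CPM in epithelium labelled knockout and 3882 CPM in control epithelium. The median of all genes with at least 100 UMIs was shifted by -0.14 in epithelium, so that smaller ratios there are read relative to that shift.

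The 6 lower members were Usp18, Ifit1, Isg15, Isg20, Xaf1 and Bst2. Isg15 was at 9.15 CPM in epithelium labelled knockout (159 UMIs) and 32.9 CPM in control epithelium (349 UMIs), 3.59-fold lower (2.97 to 4.36). Usp18 was 4.25-fold lower (3.19 to 5.72), and Ifit1 4.23-fold lower (2.92 to 6.22). Isg20 stood at 33.6 CPM in epithelium labelled knockout and 116 CPM in control epithelium, 3.46-fold lower (3.14 to 3.83). Bst2 was at 85.4 CPM in epithelium labelled knockout and 242 CPM in control epithelium, 2.84-fold lower (2.66 to 3.03). Xaf1, a gene linked to cell death, was 3.34-fold lower (2.66 to 4.21). Below the 2-fold limit, Ifitm3 had a ratio of 0.850 (0.838 to 0.863) and Ifi35 0.805 (0.721 to 0.901).

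The 7 higher members included both genes of the IFI27 family. Ifi27l2a was at 70.0 CPM in epithelium labelled knockout (1216 UMIs) and 5.46 CPM in control epithelium (58 UMIs), 12.8-fold higher (9.85 to 17.0). This ratio was 4.67 when doublets were not removed and 33.6 after thinning to 2000 UMIs. Ifi27 was 2.38-fold higher (2.13 to 2.65), with 93.0 CPM in epithelium labelled knockout and 39.2 CPM in control epithelium. Ly6e was at 280 CPM in epithelium labelled knockout and 132 CPM in control epithelium (2.13, 2.01 to 2.26). Irf1, a factor that interferon gamma and NF-kB can each induce, was at 59.0 CPM in epithelium labelled knockout and 24.1 CPM in control epithelium (2.45, 2.13 to 2.82). Gbp2 (2.35) and Oasl1 (2.45) were also past 2-fold. Ifi203 had 33 UMIs in epithelium labelled knockout and 0 in control epithelium, and so passed the minimum only through the library labelled knockout. With the control set to a floor of 3 counts its ratio was 6.73, which is not a bound. Stromal markers not used by the rule summed to 9.50 CPM in epithelium labelled knockout and 21.0 CPM in control epithelium. In stroma the same markers summed to 3262 CPM in the library labelled knockout and 2569 CPM in the control. Immune markers summed to 31.4 CPM in epithelium labelled knockout and 68.5 CPM in control epithelium, and macrophage markers to 29.8 CPM in epithelium labelled knockout and 70.1 CPM in control epithelium. NF-kB type genes, from the same list, were higher here too. Of 6 measured, 5 were at least 2-fold higher, where 5.08% of all genes were, with Cxcl1 at 4.07 and Tnfaip3 at 5.03. Their part in the result was not tested.

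**Figure D2:**
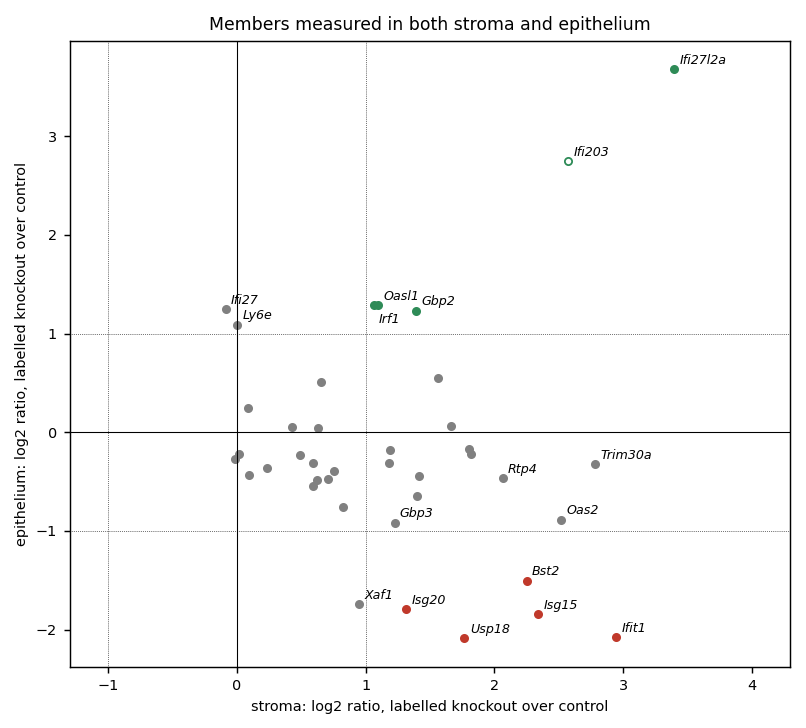
Log2 ratio of CPM, library labelled knockout over control, in stroma (horizontal) and epithelium (vertical) for the 40 members measured in both. Red points are at least 2-fold higher in stroma and at least 2-fold lower in epithelium. Green points are at least 2-fold higher in both, and grey points are all others. The open point (Ifi203) is a ratio with the control in epithelium set to a floor of 3 counts, which is not a bound. The lower right quadrant holds 26 of the 40 members (65%), and 27.9% of all genes measured in both have such ratios. Among the 26 are Ifit1, Isg15, Usp18, Bst2 and Isg20.

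Of 40 members measured in both stroma and epithelium, 26 (65%) had a ratio above 1 in stroma and below 1 in epithelium. Of the 12023 genes measured in both, 27.9% did. For 18 of the 40 members (45%) both intervals excluded 1 in these directions, where 7.85% of those genes had such intervals. In epithelium alone, 67.5% of the 40 members and 65.5% of those genes had a ratio below 1, so the members stood near all genes there. In stroma alone, 5% of the members and 51.8% of all genes did. Another 12 were above 1 in both, 1 was below 1 in both, and 1 was below 1 in stroma and above 1 in epithelium. Isg15, Usp18, Ifit1, Isg20 and Bst2 were past 2-fold in each direction (12.5% of the 40 members and 0.682% of all genes). Ifi27l2a, Irf1, Gbp2, Oasl1 and Ifi203 were at least 2-fold higher in both (12.5% of the 40 members and 0.832% of all genes). The order of the compartments within a library differed as well. It was not counted over all genes, so whether the members differ from genes in general here is not known. In the library labelled knockout, 24 of 46 members with enough UMIs had a higher level in epithelium than in stroma, 12 of them by at least 2-fold, and 14 were at least 2-fold higher in stroma. In the control, 35 of 47 were higher in epithelium, 29 of them by at least 2-fold, and 8 were at least 2-fold higher in stroma. Bst2 illustrates the change of order, with 325 CPM in stroma and 85.4 CPM in epithelium in the library labelled knockout, and 68.3 CPM in stroma and 242 CPM in epithelium in the control.

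**Figure D3:**
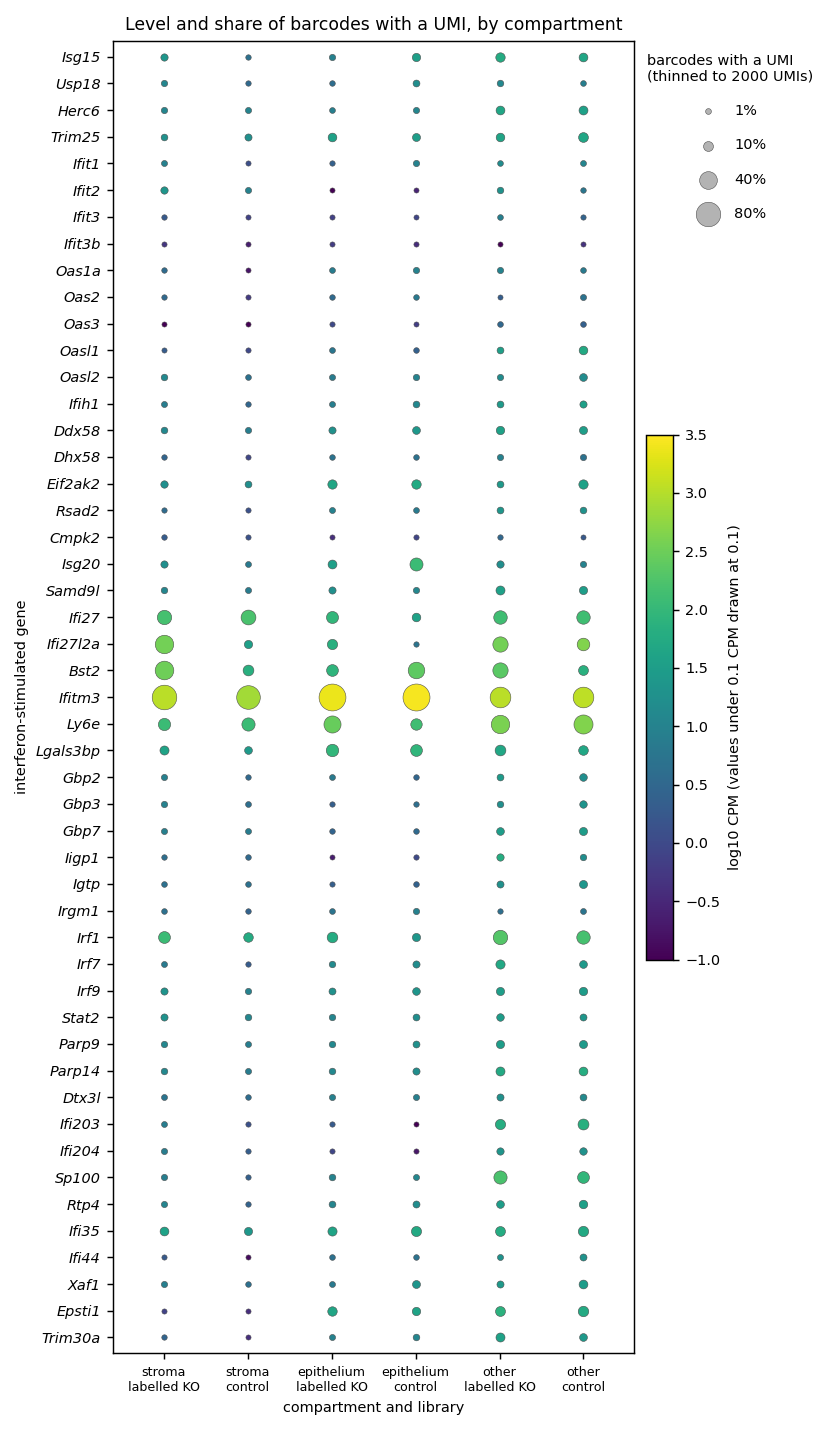
Level and share of barcodes for each of the 49 members listed (rows, grouped by role) in stroma, epithelium and other barcodes of each library (columns, labelled KO left of control). Colour is log10 CPM and the area of a point grows with the percent of barcodes with a UMI after thinning to 2000 UMIs. Ifitm3 is the largest point in every column, at 80.7% of stromal barcodes labelled knockout and 74.2% of control stromal barcodes, while most other members are in a few percent or less.

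Whether few or most stromal cells carried the members was read after each barcode was thinned to 2000 UMIs, which kept 941 stromal barcodes labelled knockout and left out 109 shallower ones, and kept 3193 control ones and left out 28. Ifi27l2a and Bst2 were carried widely. Ifi27l2a had a UMI in 44.1% of stromal barcodes labelled knockout (40.9% to 47.3%) and 5.95% of control stromal barcodes (5.15% to 6.83%). Without thinning the shares were 59.5% of stromal barcodes labelled knockout and 17.9% of control ones. Bst2 was found in 45.0% of stromal barcodes labelled knockout and 12.6% of control ones, and Ifitm3 in 80.7% of stromal barcodes labelled knockout and 74.2% of control ones. No compartment is known to lack these genes altogether. The lowest share of Ifi27l2a was in control epithelium, at 0.423%, and in epithelium labelled knockout it was 11.2%.

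**Figure D4:**
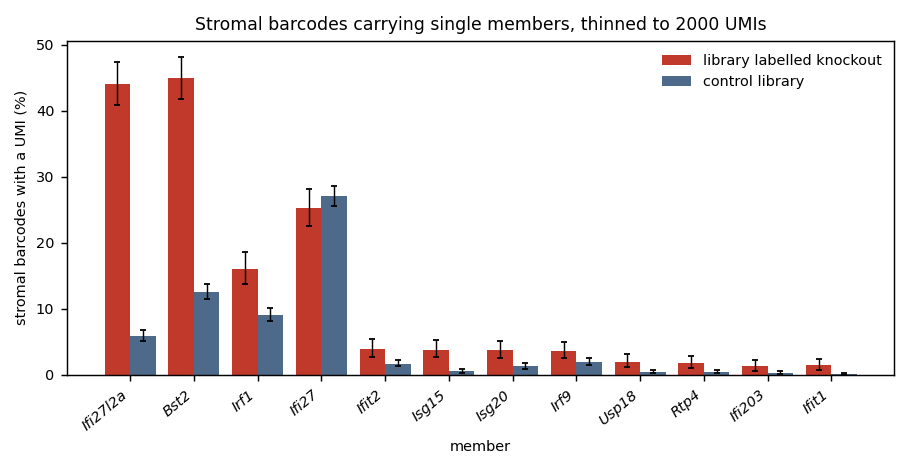
Percent of stromal barcodes with a UMI of 12 members after thinning to 2000 UMIs, in the library labelled knockout (red, left of each pair) and the control (blue). Bars are shares and whiskers are exact binomial 95% intervals for counting error only. Ifi27l2a and Bst2 reach 44.1% and 45.0% in stroma labelled knockout, and Isg15 and Ifit1 3.83% and 1.49%.

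Isg15 and Ifit1 were in few barcodes. Isg15 had a UMI in 3.83% of stromal barcodes labelled knockout (2.69% to 5.26%) and 0.532% of control ones (0.310% to 0.851%). Without thinning these shares were 6.67% in stroma labelled knockout and 2.76% in control stroma. Ifit1 was found in 1.49% of stromal barcodes labelled knockout and 0.125% of control ones. Irf1 lay between, at 16.0% of stromal barcodes labelled knockout and 9.14% of control ones. A barcode with no UMI may still express the gene, since the mean of Isg15 at this depth was 0.0478 UMIs per stromal barcode labelled knockout and 0.00626 per control one.

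Counting the 26 listed members of the inducible set gives the same picture per barcode. At least 1 of them was detected in 57.3% of stromal barcodes labelled knockout (54.0% to 60.5%) and 17.7% of control ones (16.4% to 19.1%). At least 3 different members were detected in 3.61% of stromal barcodes labelled knockout (34 barcodes, 2.51% to 5.01%) and 0.313% of control ones (10 barcodes, 0.15% to 0.575%). At least 5 were detected in 6 stromal barcodes labelled knockout and in 3 control ones. With Ifi27l2a set aside, 25.3% of stromal barcodes labelled knockout and 12.7% of control ones had at least 1, and 1.28% of those labelled knockout (12 barcodes) and 0.219% of control ones (7 barcodes) had at least 3. In epithelium at least 1 was detected in 30.0% of barcodes labelled knockout (27.6% to 32.5%) and 30.9% of control ones (27.5% to 34.4%), and with Ifi27l2a set aside in 21.4% of barcodes labelled knockout (19.2% to 23.6%) and 30.6% of control ones (27.2% to 34.1%).

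**Figure D5:**
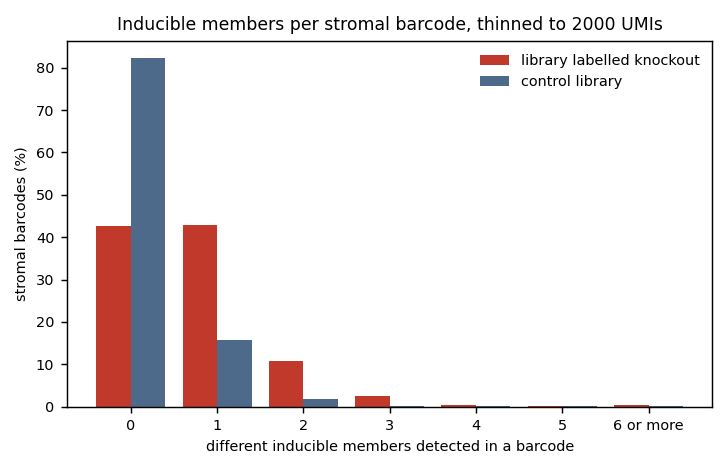
Percent of stromal barcodes (vertical) by the number of different inducible members detected after thinning to 2000 UMIs (horizontal), in the library labelled knockout (red, left of each pair) and the control (blue). No member was found in 42.7% of stromal barcodes labelled knockout and 82.3% of control ones, and exactly 1 in 42.8% of those labelled knockout and 15.7% of control ones.

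A few barcodes held much of Ifit1 and few of the UMIs of Ifi27l2a. They were chosen for carrying these members, so part of their share is fixed by the choice. The 6 stromal barcodes labelled knockout with at least 5 inducible members held 19 of the 30 Ifit1 UMIs, 12 of the 45 Isg15 UMIs and 9 of the 707 Ifi27l2a UMIs left after thinning. The 3 such control barcodes held 7 of 9 Ifit1 UMIs, 5 of 20 Isg15 UMIs and 1 of 234 Ifi27l2a UMIs. The variance over the mean across barcodes, 1 for even scatter, was 8.11 for Ifit1 in stroma labelled knockout and 3.44 in control stroma. For Isg15 it was 1.53 in stroma labelled knockout and 1.59 in control stroma. For Bst2 it was 1.20 in stroma labelled knockout and 1.19 in control stroma, and for Ifi27l2a 1.85 in stroma labelled knockout and 1.41 in control stroma. Genes with a mean between 0.2 and 1 UMI, the range of Bst2 and Ifi27l2a in stroma labelled knockout, had a median of 1.10 and a 90th percentile of 1.61 there. For a mean between 0.02 and 0.2 UMI, the median was 1.03 in each library. The 90th percentile was 1.19 in stroma labelled knockout and 1.20 in control stroma. That is the range of Ifit1 and Isg15 in stroma labelled knockout and of Bst2 and Ifi27l2a in control stroma. When barcodes that carried at least 3 inducible members at full depth were left out, 18 of 41 members measured were at least 2-fold higher in stroma. The median log2 ratio of the 41 was 0.83, and the share of all genes past 2-fold was not taken at this setting. That choice of barcodes lowers the members by construction and was added after the data were seen.

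The members also differed in which other genes shared their barcodes. In stroma labelled knockout, the 36 thinned barcodes with Isg15 had the other inducible members, Ifi27l2a aside, at 972 CPM and the 905 without it at 138 CPM, a ratio of 7.07 (5.34 to 9.25). In control stroma the values were 853 CPM in 17 barcodes with Isg15 and 71.6 CPM in those without. Ifi27l2a had a ratio of 1.11 (0.746 to 1.61) between the same barcodes in stroma labelled knockout. In epithelium labelled knockout its ratio was 2.70 (1.27 to 5.07), on 10 UMIs in 27 barcodes with Isg15 and 184 in the rest. Barcodes split by Ifi27l2a itself had the other inducible members at a ratio of 1.65 (1.34 to 2.05) in stroma labelled knockout and 1.47 (1.05 to 2.02) in control stroma. Barcodes with Ccl2 or Cxcl1, taken as carriers of the NF-kB type response, made up 30.8% of stroma labelled knockout. Irf1 was at 231 CPM in them and 57.6 CPM in the rest, a ratio of 4.01 (3.0 to 5.39), while Ifi27l2a had a ratio of 0.929 (0.787 to 1.09) and Isg15 1.01 (0.498 to 1.96). The other inducible members together, Ifi27l2a aside, had a ratio of 1.82 (1.47 to 2.25) in such barcodes labelled knockout. In control stroma Irf1 had a ratio of 3.29 in such barcodes, the other inducible members 1.79 (1.37 to 2.31), and Isg15 6.07 (2.05 to 16.4) on 7 UMIs in such barcodes and 13 in the rest. These are descriptions of cells within a library, which share its processing.

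Of 43 members measured among the other barcodes, pooled over types, 3 were at least 2-fold higher in the library labelled knockout, where 4.32% of all genes were, and 0 at least 2-fold lower, where 5.93% were. The count of 3 became 14 of 46 measured at a marker threshold of 20, which changes the barcodes that fall outside stroma and epithelium. The median log2 ratio was 0.20, against 0.01 over all genes, and turned to -0.17 after thinning to 2000 UMIs. The 3 were Iigp1 (3.89, 2.52 to 6.10), Bst2 (3.03, 2.46 to 3.75) and Ifit2 (3.20, 1.48 to 7.10). Sp100 (1.75), Irf7 (1.95) and Irf1 (1.33) had intervals above 1. Ifi27l2a ran the other way, with 352 CPM in other barcodes labelled knockout and 444 CPM in control ones (0.792, 0.698 to 0.898), though its ratio was 1.99 at that threshold of 20. Oasl1 also had a ratio below 1 (0.648, 0.424 to 0.967). The makeup of these barcodes differed too, with macrophage markers at 897 CPM in the library labelled knockout and 1928 CPM in the control, and its part was not tested.

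Within that remainder, Iigp1, a GTPase that attacks the vacuoles of intracellular parasites, was largely endothelial. It had 56 UMIs in 42 endothelial barcodes labelled knockout (460 CPM) and 26 UMIs in 55 control ones (57 CPM), a ratio of 8.08 (4.99 to 13.4). Of 28 members measured in endothelium, 9 were at least 2-fold higher, where 5.65% of all genes were, and 0 at least 2-fold lower, where 9.23% were. Among them were Gbp2 (3.57), Sp100 (3.98), Trim30a (3.53) and Isg15 (2.96). In the 193 immune barcodes labelled knockout and the 160 control ones, 34 members were measured. Of these, 0 were at least 2-fold higher, where 3.77% of all genes were, and only Gbp3 (10.5 CPM in immune barcodes labelled knockout, 34.7 CPM in control ones) was lower, where 8.32% were. Immune barcodes had Ifi27l2a at 630 CPM in the library labelled knockout and 975 CPM in the control. Of the 5 members measured in the 55 mural barcodes labelled knockout and the 36 control ones, 3 were at least 2-fold higher, where 6.38% of all genes were, and 0 at least 2-fold lower, where 9.62% were.

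The interferons themselves were detected in few places. Ifnb1, the early type I interferon, had 0 UMIs in every compartment of each library. Ifne, the epithelial type I interferon of the reproductive tract, was found in epithelium and in neither stroma nor the other barcodes. It had 225 UMIs in epithelium labelled knockout (13.0 CPM) and 60 in control epithelium (5.65 CPM), a ratio of 2.29 (1.72 to 3.10). Ifng was found among the other barcodes, with 55 UMIs in those labelled knockout (57.8 CPM) and 122 in control ones (55.5 CPM), nearly all of them immune. A count of 0 limits what was detected at this depth and does not show absence.

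Few receptor and signalling genes were past 2-fold, and the share of all genes past it was small too. In stroma, 2 of the 22 other pathway genes measured were at least 2-fold higher, where 5.55% of all genes were. The 2 were the receptor gene Ifngr1 (2.13, 1.78 to 2.53) and the factor gene Irf8 (2.37). At least 2-fold lower were 0, where 11.7% of all genes were. The type I receptor genes Ifnar1 and Ifnar2 had stromal ratios of 1.36 and 0.953, Jak1 0.819 and Tyk2 0.857. Of the restraint genes, Socs1 had a ratio of 1.66 and Socs3 1.05. In epithelium 2 of 23 were at least 2-fold higher, where 5.08% of all genes were, and 0 at least 2-fold lower, where 15% were. The 2 were Ifne and Tmem173, the gene of the adaptor STING (2.18, 1.98 to 2.42). Among the other barcodes 1 of 21 was past 2-fold, Jak2 (2.11), where 4.32% of all genes were at least 2-fold higher.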

How the data were processed

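Each library is 1 sample of uterine tissue captured in 10x droplets. The deposited matrices hold integer counts of UMIs per gene and barcode, written by the authors' run of Cell Ranger 7.0.1 according to the file headers. The submitters' processing notes name mm39 and Seurat without a role. No author annotation was used. Barcodes needed 500 or more genes and a mitochondrial share of 15% or less. The gene minimum took out 115 barcodes labelled knockout and 65 control ones, and the mitochondrial limit a further 52 labelled knockout and 100 control. The highest Scrublet scores (scanpy 1.11.5) were removed at 0.8% per 1000 barcodes, 70 in the library labelled knockout and 159 in the control. The libraries shared 3 barcode sequences. Barcodes past both marker thresholds, 9 labelled knockout and 26 control, were left out. Other barcodes were called immune, endothelial or mural by their largest marker sum.

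UMIs were summed per compartment and library and scaled to CPM. Ratios carry exact conditional intervals and shares exact binomial (Clopper-Pearson) intervals, with scipy 1.17.1, and PCR copies are removed by the UMIs. Barcodes were thinned with seed 1. The ratios and their intervals were tested on simulated stromal sums with counting error only. Thinning was checked on control stromal barcodes, and shares per barcode were not simulated. Named members have at least 50 CPM or a 2-fold ratio, ranked by the interval bound nearest 1 (12 in stroma, 8 in epithelium, 6 in other barcodes, in each direction), plus the member with the most UMIs in each role group. Others are named to account for them. Members, lists, roles and the inducible set were chosen with earlier results of these data known. Alternatives varied the filters, doublets, scaling, depth, minimum, thresholds and free RNA. Near-identical families (Ifi27l2a, Ifit, Oas, Gbp, Ifi203 and Ifi204, Trim30a) may have reads split or shared between copies, so that single values are less certain. The deposited files give no coordinates, and promoter windows come from RefSeq on another build than mm39. Single values of 1 other pathway gene are not reported here.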

Additional observations from a re-analysis of the deposited data

Results flagged for a closer look

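Isg15, Usp18, Ifit1, Isg20 and Bst2 drew attention because each was at least 2-fold higher in stroma labelled knockout and at least 2-fold lower in epithelium labelled knockout. The log2 ratio in stroma minus that in epithelium was 4.18 for Isg15, 3.85 for Usp18, 5.02 for Ifit1, 3.10 for Isg20 and 3.75 for Bst2. With 1 library per genotype this difference was not tested, and Errfi1, at 733 CPM in stroma labelled knockout and 197 CPM in control stroma, runs against the label of the same barcodes. Epithelial barcodes took 49.2% of the library labelled knockout and 16.8% of the control. Such opposite ratios were held by 12.5% of the 40 members measured in both compartments, and 12.5% were at least 2-fold higher in both.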

How the results depend on the processing

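The stromal median of 1.14 stayed between 0.73 and 1.19 and the count of 24 between 14 and 27 under the alternatives run. The count was 14 of 32 measured at a member minimum of 100 UMIs and 16 of 37 after thinning to 2000 UMIs. It was 27 of 48 with a minimum of 1 UMI, against 24 of 44 in the main setting. Shares of all genes were not taken at these settings. In epithelium the count of 7 of 44 was 4 of 35 after thinning, and scaling by the median of ratios moved its median to -0.15. Among other barcodes the median reversed to -0.17 after thinning. The count of 3 of 43 was 1 of 22 with at least 100 UMIs and 14 of 46 at a marker threshold of 20. The cause was not tested. The share of stromal barcodes with at least 3 inducible members, 3.61% labelled knockout and 0.313% control, was 1.06% labelled knockout and 0.0934% control at 1000 UMIs, 6.22% labelled knockout and 0.606% control at 3000, and 10.4% labelled knockout and 5.0% control without thinning. With at least 1 member it was 57.3% labelled knockout and 17.7% control, and with at least 5 it was 0.638% labelled knockout and 0.0940% control. Of single members, Ly6e in stroma moved between 0.905 and 1.02, Xaf1 in stroma between 1.77 and 2.22, and Irf1 in stroma between 1.83 and 2.11. Ifi27l2a in epithelium, higher throughout, moved between 4.67 and 33.6. No paired analysis was possible because each genotype has 1 library. Differences between animals cannot be told apart from genotype, and the shallower stroma labelled knockout limits what low members show.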

Other observations

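Shares in epithelium followed the levels. Isg15 had a UMI in 1.98% of thinned epithelial barcodes labelled knockout and 6.06% of control ones. Bst2 was found in 15.7% of those labelled knockout and 34.8% of control ones, and Isg20 in 7.39% of those labelled knockout and 20.2% of control ones. The barcodes with Isg15 in epithelium had the other inducible members at a ratio of 2.92 (1.73 to 4.63) to the rest in the library labelled knockout and 2.85 (2.02 to 3.95) in the control.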
